A study of Mus musculus with 2 samples.

Results

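A set of ATP-binding cassette (ABC) pumps and aldehyde dehydrogenases was examined in long-term hematopoietic stem cells (LT-HSCs) of old mice. The mice were controls or carried an induced deletion of *Mapk14*, which encodes p38α, a stress-activated kinase. Some pumps and dehydrogenases are used to recognise and purify primitive blood cells, but not all of the genes here are. The array has 22555 named genes. Of these the set takes 9, 6 pumps (*Abcb1a*, *Abcb1b*, *Abcg2*, *Abcc1*, *Abca4* and *Abca5*) and 3 dehydrogenases (*Aldh1a1*, *Aldh2* and *Aldh5a1*). They were chosen by name, and all 11 probes of the array that carry these names are reported. On the array labelled p38αΔ/Δ, 7 of the 9 genes gave a lower signal than on the p38α+/+ array and 2, *Abcb1a* and *Abcc1*, gave a higher one. Of all 17194 measured genes, 52.4% were lower by any amount. *Aldh2* differed most, by 3.70-fold, and the pair of multidrug genes *Abcb1a* and *Abcb1b* moved in opposite directions.

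The cells were CD150+CD48-Flt3-CD34- LSK cells (lineage-, Sca-1+, c-Kit+), by the study's methods also CD41-, sorted from bone marrow of 2-year-old C57BL/6J mice, and each genotype was measured on 1 single-colour Agilent array. The p38αΔ/Δ group carried p38α fl/fl alleles and CreERT2 under the CAG promoter, which is active in most cell types, so the deletion was not limited to blood cells. Tamoxifen had been given about 1 year before analysis. The study checked the deletion in such mice by genomic PCR of blood cells, where the fall was partial. How complete it was in the sorted LT-HSCs of these arrays was not measured here. By the study's methods the p38α+/+ group carried the same fl/fl alleles without CreERT2 and received tamoxifen as well, so both groups share floxed *Mapk14* and the drug. How many mice gave RNA to each array was not given in the sources used here. With 1 array per genotype no difference has a replicate check or a test, and what follows compares the pair of arrays.

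The 75th percentile of log2 signal was 7.16 for p38α+/+ and 6.85 for the other array, and 67.9% and 69.0% of probes were well above background. The labels could not be checked with the deleted gene, because both *Mapk14* probes gave nearly equal levels (log2 differences of -0.05 and -0.04) and neither probe was placed relative to the deleted exons. Every direction below therefore rests on the labels. HSC markers were detected in both samples (18 of 18 well above background on both arrays), and their values stand below beside the results that they moved with.

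ABC transporters use ATP to move molecules across membranes. *Abcb1a* and *Abcb1b* encode the rodent forms of P-glycoprotein and *Abcg2* encodes the breast cancer resistance protein. These pumps export drugs and fluorescent dyes, and *Abcg2* gives HSCs the low Hoechst staining known as the side population. Aldehyde dehydrogenases oxidise reactive aldehydes to acids. High activity of this family in a fluorescent assay is another way to enrich for stem cells, and *Aldh2* protects HSCs from DNA damage by aldehydes that metabolism releases.

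Each of the genes was read by 60-base probes with 1 spot per array. The sequences of the probes behind the dehydrogenase that differed most and behind the side population pump are given 5′ to 3′ from the scanner files. The *Aldh2* probe lies on the minus strand of chromosome 5, at chr5:122022137-122022690 of mm9, a span of 554 bases, so its bases are split in the genome. The *Abcg2* probe lies on the plus strand at chr6:58642312-58642371.
*Aldh2*: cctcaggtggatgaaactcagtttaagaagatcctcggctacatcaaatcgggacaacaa
*Abcg2*: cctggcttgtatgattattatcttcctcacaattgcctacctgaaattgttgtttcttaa
No other probe of the array shared a run of 20 bases with any of the 11 probes, and the runs they shared with each other were at most 8 bases long. The *Abcb1a* and *Abcb1b* values came from separate probes with no long shared stretch. Probes were compared only with each other and not with transcripts. Whether either probe also binds the transcript of the other gene was therefore not tested, and cross-hybridisation was not measured. No annotation of build mm9 was used here, so exon and UTR positions are not stated.

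**Figure D1:**
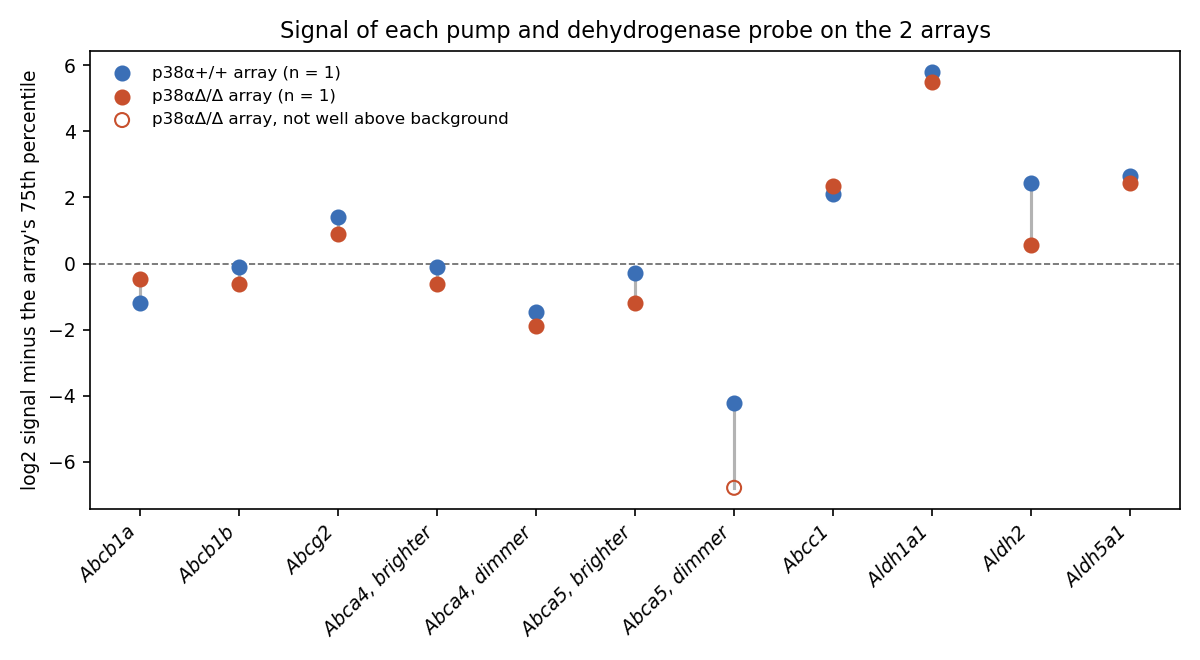
Level of each of the 11 probes on the 2 arrays, as log2 signal minus that array's 75th percentile (dashed line at 0), with 1 array per genotype and no replicates. *Aldh2* fell from 2.45 to 0.56, and only the *Abcb1a* and *Abcc1* probes lay higher on the array labelled p38αΔ/Δ. The open circle is the dimmer *Abca5* probe, which was not well above background there.

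The multidrug pumps did not move as a group. *Abcb1a* (chr5:8748075-8748134, plus strand, mm9) had levels of -1.21 (p38α+/+) and -0.47 (p38αΔ/Δ as labelled), where levels are log2 signal relative to the 75th percentile of the same array. It was 1.66-fold higher on the array labelled p38αΔ/Δ (log2 difference of 0.73), and 91.6% of all measured genes had a lower difference. *Abcb1b*, its neighbour (chr5:8865925-8865984, plus strand), had levels of -0.12 and -0.63 and was 1.43-fold lower (-0.51). The difference of *Abcb1a* exceeded that of *Abcb1b* by 1.25 on the log2 scale, a ratio of 2.37, with a combined error of 0.29 from the scanner software's own error model. With normexp background correction, which gave the lowest of 8 settings, it was 0.72, from 0.43 for *Abcb1a* and -0.28 for *Abcb1b*.

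*Abcg2* had levels of 1.42 and 0.88, 1.45-fold lower on the array labelled p38αΔ/Δ (-0.54). It stayed between -0.54 and -0.49 under every processing tried. *Abcc1*, the multidrug resistance protein that exports glutathione conjugates and leukotriene C4 (chr16:14474551-14474610, plus strand), had levels of 2.11 and 2.33 and was 1.16-fold higher (0.22). That difference was about as large as its scanner error of 0.20. Its direction depends on the scaling, since the unscaled scanner signals were 619 (p38α+/+) and 579 (p38αΔ/Δ as labelled). Of the 4 drug and dye exporters, then, 2 were lower and 2 were higher.

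Annotated promoter windows of the 2 *Abcb1* genes are shown because their probes moved in opposite directions. They are RefSeq windows of 300 bases on the plus strand of chromosome 5 in GRCm38.p6, from 250 bases before the start to 50 bases after, at chr5:8566841-8567140 for *Abcb1a* and chr5:8797897-8798196 for *Abcb1b*. Capitals mark matches to the motifs searched on both strands.
*Abcb1a*: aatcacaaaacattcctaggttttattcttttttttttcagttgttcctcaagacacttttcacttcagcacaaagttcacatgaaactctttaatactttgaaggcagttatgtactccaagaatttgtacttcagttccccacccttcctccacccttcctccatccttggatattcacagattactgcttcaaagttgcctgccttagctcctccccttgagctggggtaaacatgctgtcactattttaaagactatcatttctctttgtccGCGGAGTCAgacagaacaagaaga
*Abcb1b*: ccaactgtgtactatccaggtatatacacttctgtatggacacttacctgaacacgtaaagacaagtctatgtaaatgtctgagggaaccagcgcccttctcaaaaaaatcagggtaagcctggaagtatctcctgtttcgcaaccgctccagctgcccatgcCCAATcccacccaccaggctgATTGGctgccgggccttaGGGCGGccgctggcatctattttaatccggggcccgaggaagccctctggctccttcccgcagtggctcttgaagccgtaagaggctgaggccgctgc
The *Abcb1a* window held 1 match to the antioxidant response element (TGACNNNGC, in 12.4% of 32851 promoters), at base 277. The *Abcb1b* window held 1 GC box (GGGCGG, 35.7% of promoters) at base 203 and 2 CCAAT boxes (CCAAT, 37.4%) at bases 164 and 185. The windows also differed in base composition, with 2 CpG sites and 40.3% GC for *Abcb1a* against 12 CpG sites and 55.0% GC for *Abcb1b* (all promoters had a median of 7 CpG sites). The other motifs searched were the TATA box (TATAAA, 13.6%), AP-1 (TGANTCA, 7.81%), CRE (TGACGTCA, 1.79%) and the E box (CACGTG, 7.15%), and neither window held one. These matches describe letters in a window and are not binding data. Which start LT-HSCs use for either gene was not tested, so these windows may not be the promoters active in these cells.

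For the other genes, 7 of the 9 were matched to RefSeq promoters, 10 windows in all, and *Abcc1* and *Aldh2* were not. A CRE stood in 1 of the 3 *Abcg2* windows, at base 214, and an AP-1 match in 1 of the 2 *Aldh1a1* windows, at base 194. The *Abca5* window held 5 GC boxes and 40 CpG sites, the *Aldh5a1* window 1 CCAAT box and the *Abca4* window 1 TATA box. No motif of the 7 was shared by all of these genes.

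The 2 members of the lipid transporter subfamily ABCA were both lower on the array labelled p38αΔ/Δ, with each of their probes, though only as a bound at the dimmer *Abca5* probe. *Abca4*, known from photoreceptors, where it clears retinal bound to phosphatidylethanolamine, had 2 probes. The brighter one (chr3:121876727-121876786, plus strand) had levels of -0.12 and -0.63, which is 1.42-fold lower (-0.51), and the dimmer one (chr3:121873884-121876698, plus strand) had levels of -1.47 and -1.88, which is 1.33-fold lower (-0.41). The probes of *Abca4* thus differed from each other by less than the scanner error of either. With normexp correction they gave -0.28 and -0.12.

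*Abca5*, a transporter of lysosomal membranes, had levels of -0.28 and -1.18 at its brighter probe (chr11:110130963-110131022, minus strand), 1.87-fold lower (-0.90), and 8.07% of all measured genes had a lower difference. It was -0.54 with normexp correction. Its dimmer probe (chr11:110136682-110137781, minus strand) had a scanner signal of 7.62 on the p38α+/+ array, and of 1.04 on the other, where it was not well above background. Its fold is a bound, at least 1.46-fold lower, against the lowest signal well above background. The scanner error of its difference was 1.48 on the log2 scale, larger than the bound itself (a log2 difference of -0.55). With normexp correction this dim probe gave 0.09, so only its brighter partner bears on the size. The dimmer probes of *Abca4* and *Abca5* are shown side by side, because they come from related genes and can be aligned without gaps. Capitals mark bases that are identical in the best ungapped alignment.
*Abca4*: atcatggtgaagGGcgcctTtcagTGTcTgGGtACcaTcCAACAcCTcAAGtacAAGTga
*Abca5*: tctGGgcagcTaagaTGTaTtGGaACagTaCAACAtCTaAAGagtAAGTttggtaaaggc
They were identical at 26 of 51 aligned bases (51.0%), with no shared run over 8 bases.

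All 3 dehydrogenases were lower on the array labelled p38αΔ/Δ, by very different amounts. *Aldh2*, the mitochondrial enzyme that clears acetaldehyde, had scanner signals of 783 (p38α+/+) and 170 (p38αΔ/Δ as labelled), and levels of 2.45 and 0.56. This is 3.70-fold lower, a log2 difference of -1.89 with a scanner error of 0.20, and it ranged from -1.89 to -1.67 over 8 settings. Only 1.70% of measured genes had a lower difference, and the value rests on a single probe whose sequence is given above.

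*Aldh1a1*, which converts retinal to retinoic acid in the cytosol (chr19:20717764-20717823, plus strand), had levels of 5.81 and 5.48, 1.26-fold lower (-0.33). *Aldh5a1*, the succinic semialdehyde dehydrogenase that ends the breakdown of the neurotransmitter GABA (chr13:25003412-25003471, minus strand), had levels of 2.65 and 2.44, 1.15-fold lower (-0.20). Both stayed below 0 in every setting, with ranges of -0.41 to -0.25 and -0.26 to -0.13. The *Aldh5a1* difference was about as large as its scanner error of 0.20.

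**Figure D2:**
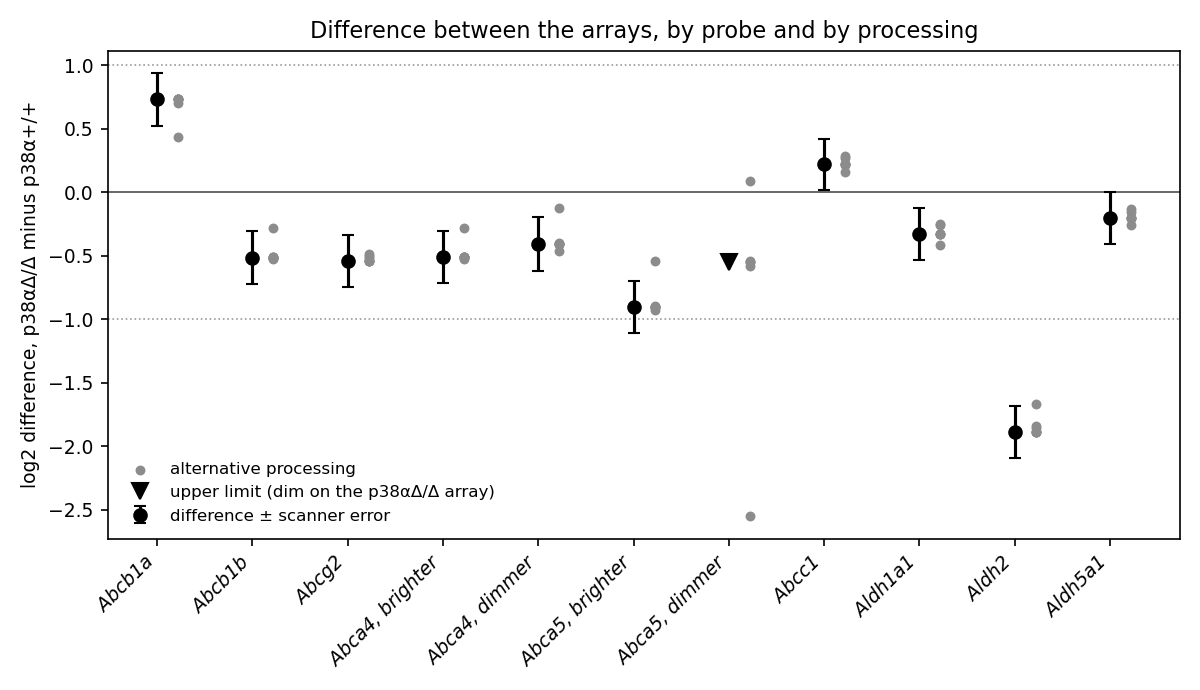
Difference between the arrays for each of the 11 probes (log2, p38αΔ/Δ minus p38α+/+), with bars for the scanner software's error, which is not a spread between mice, dotted lines at a 2-fold difference, and grey points for the same probe under other processing. Of the black points *Aldh2* alone lies beyond the 2-fold line, at -1.89. The triangle, drawn without an error bar, is the bound of the dimmer *Abca5* probe, whose grey points run from -2.55 to 0.09.

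With each gene at its brightest probe, 1 of the 9 genes (*Aldh2*) lay 2-fold or more below its p38α+/+ level and 0 lay 2-fold or more above it. Over all 17194 measured genes, the shares past 2-fold were 6.71% in the lower direction and 4.11% in the higher, so the count past 2-fold in the 9 genes was near the background. The 7 lower genes stand beside 52.4% of all genes that were lower by any amount. The median difference of the 9 genes was -0.51, against -0.03 for all measured genes, whose quartiles were -0.38 and 0.33. It was -0.28 with normexp correction.

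For 6 of the 9 genes the difference was beyond 2 times the scanner error (5 lower and 1 higher), and *Abcc1*, *Aldh1a1* and *Aldh5a1* were within it. All 9 were beyond the SD of a difference between repeated spots of 1 probe at the same brightness, which ran from 0.067 to 0.15. Both yardsticks cover the array alone and say nothing about the spread between mice. The 6 pumps had a median of -0.51 (4 lower, 2 higher) and the 3 dehydrogenases a median of -0.33 (3 lower).

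The study's list of genes that mark aged HSCs holds 6 of the 9 genes, *Abcb1a*, *Abcb1b*, *Abca4*, *Abca5*, *Aldh1a1* and *Aldh5a1*. Of these, 5 were lower and *Abcb1a* was higher, with a median of -0.42, where 52.4% of all measured genes were lower. The 3 genes outside that list, *Abcg2*, *Abcc1* and *Aldh2*, had 2 lower and 1 higher, with a median of -0.54. *Aldh2*, the gene past 2-fold, is not on the list.

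The wider ABC family was close to all genes. Of its 50 genes on the array 38 were measured, with 22 lower (2 by 2-fold or more), 16 higher (0 by 2-fold or more) and a median of -0.10. Without the 6 pumps named above the median was -0.08 over 32 genes. Among these others, *Abcf2*, a family member without membrane-spanning parts, was lower by -1.05, with levels of 1.23 and 0.18. *Abcc4*, which exports cyclic nucleotides, was lower by -0.50, with levels of 0.87 and 0.37. *Abcg4*, a sterol transporter, was higher by 0.84, with levels of -0.05 and 0.79 (its other measured probe, not used for the counts, gave 1.34). *Abcb4*, the phosphatidylcholine flippase and the next gene after *Abcb1b*, was higher by 0.62, with levels of 1.31 and 1.93 (its other probe gave 0.30). *Abcb9*, a lysosomal peptide transporter, was dim on the array labelled p38αΔ/Δ and was at least 2.05-fold lower, but gave -0.0035 on the log2 scale with normexp correction. That correction also took *Abcf2* under 2-fold, to -0.83.

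Directions were mixed within each large subfamily. Of 8 measured ABCB genes, the subfamily of *Abcb1a* and *Abcb1b*, 5 were higher and 3 lower, with a median of 0.18. The ABCA subfamily, with *Abca4* and *Abca5*, had 6 lower and 4 higher of 10 measured, and a median of -0.08. The ABCG subfamily had 3 lower and 1 higher of 4, with a median of -0.26, and ABCC had 6 lower and 3 higher of 9, with a median of -0.17. *Abca4* and *Abca5* thus lay below the median of their own subfamily, by amounts that were not tested.

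In the aldehyde dehydrogenase family more genes were lower than higher. Of 21 genes on the array 17 were measured, 13 lower and 4 higher, 2 of them at least 2-fold lower, with a median of -0.25 (-0.08 with normexp correction). Over all measured genes 52.4% were lower by any amount and 6.71% at least 2-fold lower. Without *Aldh1a1*, *Aldh2* and *Aldh5a1*, 10 were lower and 4 higher, with a median of -0.21, which became -0.01 with normexp correction. *Aldh4a1*, a mitochondrial enzyme of proline breakdown, was 2.40-fold lower, with levels of 1.25 and -0.02 (-1.26), and was the other gene past 2-fold, though just under it with normexp correction (-0.98). *Aldh3b3* was lower by -0.79, with levels of -1.49 and -2.28, but by -0.21 with normexp correction and -0.46 as the mean of its probes. *Aldh1a7*, the neighbour and close relative of *Aldh1a1*, was higher by 0.81, with levels of -3.58 and -2.77 (0.33 with normexp correction), and *Aldh8a1* was higher by 0.29. *Aldh1a2* and *Aldh1a3*, the other retinal dehydrogenases, and *Aldh3b1* and *Aldh3b2* were not well above background on either array.

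**Figure D3:**
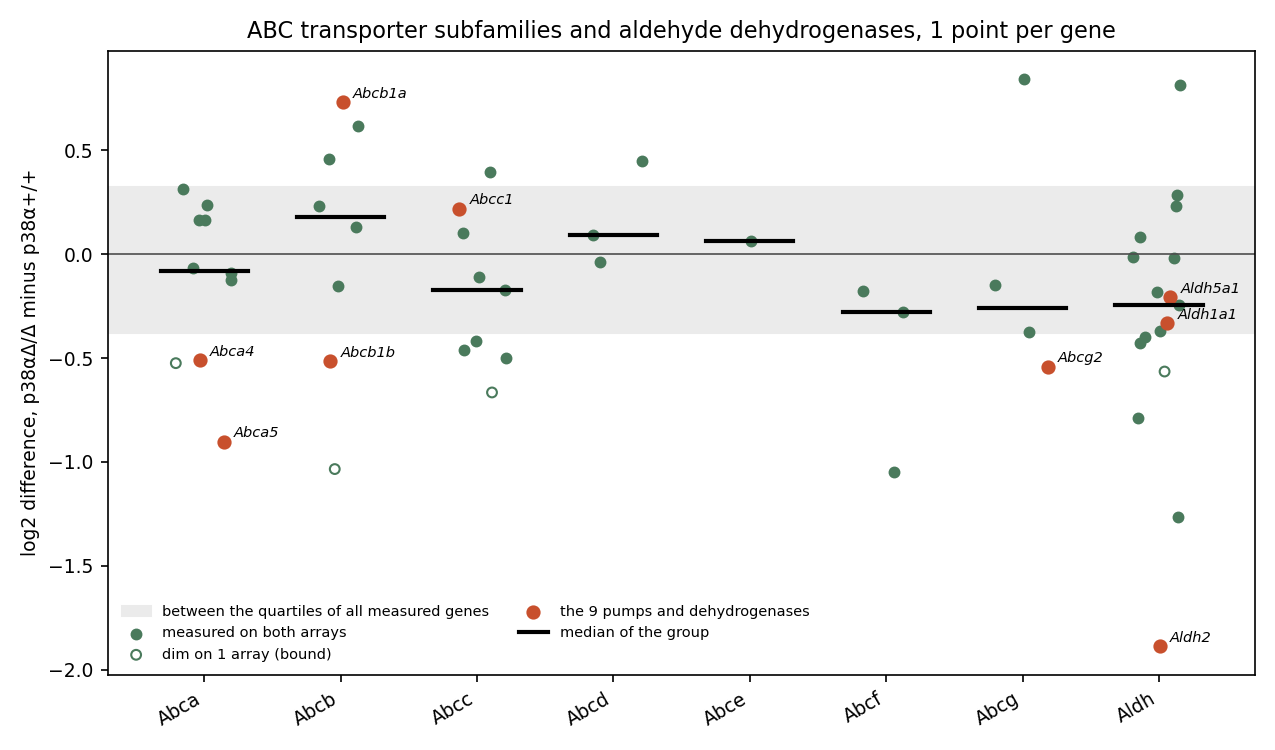
Difference between the arrays (log2, p38αΔ/Δ minus p38α+/+) for each measured gene of the ABC subfamilies and of the aldehyde dehydrogenase family, 1 point per gene at its brightest probe, with the 9 genes in red, a bar at each median and the range between the quartiles of all genes shaded (-0.38 to 0.33). *Aldh2* lies lowest of the genes shown and *Abcb1a* stands opposite *Abcb1b*. Open points are bounds.

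Genes that work beside the pumps and dehydrogenases were listed by role, with the same background shares past 2-fold, 6.71% lower and 4.11% higher. Of 21 genes that make, bind, sense or break down retinoic acid, the product of *Aldh1a1*, 17 were measured, 9 lower (3 by 2-fold or more) and 8 higher (2 by 2-fold or more). The median was -0.10, but 0.23 in the authors' table and 0.13 with the mean of probes. *Cyp26a1* and *Cyp26b1*, which degrade retinoic acid, were lower by -1.68 and -0.66, though *Cyp26a1* gave -0.25 with normexp correction. The nuclear receptor *Rxrg* was higher by 1.42 and the binding protein *Crabp2* by 1.04, which became 0.84 and 0.93, both under 2-fold, with that correction. *Cyp26c1* and *Rara*, the retinoic acid receptor α, were dim on the array labelled p38αΔ/Δ and at least 9.92-fold and 8.95-fold lower, bounds that shrank to log2 differences of -0.59 and -0.54 with normexp correction.

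Of 16 regulators of pump genes all 16 were measured, 8 lower (2 by 2-fold or more) and 8 higher (1 by 2-fold or more), with a median of -0.09. The kinase *Pim1*, which phosphorylates the *Abcg2* product, was lower by -1.29 and the liver X receptor *Nr1h3* by -1.10. The other liver X receptor, *Nr1h2*, was higher by 1.12, and *Ppara* by 0.95 at its brightest probe and 0.33 as the mean of its probes. With normexp correction none of these was past 2-fold, with *Pim1* at -0.80, *Nr1h3* at -0.73, *Nr1h2* at 0.97 and *Ppara* at 0.55.

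Of 15 other genes of aldehyde and alcohol oxidation 11 were measured, 9 lower (2 by 2-fold or more) and 2 higher, with a median of -0.15. The aldehyde reductase *Akr7a5* was lower by -1.47 and *Akr1a1* by -0.31. *Adh5*, which clears formaldehyde bound to glutathione, was higher by 0.65 with low levels of -3.67 and -3.02, opposite in direction to *Aldh2*, which also clears formaldehyde. *Akr1b3* gave 0.11 at its brighter probe and -0.69 at the other. *Adh1* was at least 3.57-fold lower, a bound that became a log2 difference of -0.14 with normexp correction. The same correction gave -0.64 for *Akr7a5*, under 2-fold, and 0.29 for *Adh5*.

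Of 10 genes of GABA breakdown around *Aldh5a1*, 7 were measured, 6 lower and 1 higher, 1 at least 2-fold lower, with a median of -0.20. *Akr7a5*, which reduces the substrate of *Aldh5a1*, was the one past 2-fold, though not with normexp correction (-0.64). *Suclg2*, a subunit of succinyl-CoA ligase, was lower by -0.86, or -0.56 with that correction. *Abat*, the GABA transaminase, gave 0.13, and *Gad1* and *Gad2*, which make GABA, were not well above background on either array.

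Most markers of HSCs were lower on the array labelled p38αΔ/Δ. Of 18 HSC markers 17 were lower, 3 at least 2-fold lower, with a median of -0.54. Over all measured genes 52.4% were lower by any amount and 6.71% at least 2-fold lower. The 3 were *Procr*, *Mecom* and *Hoxa9*, but the *Mecom* probes ran from -1.44 to 0.61 and the other *Hoxa9* probe gave -0.37. The summed linear level of the 18 markers relative to the 75th percentile went from 226 to 178. *Procr*, a surface marker of HSCs, went from 4.38 to 3.17, and *Slamf1*, which encodes the CD150 of the sort gate, from -1.26 to -2.08. Of the genes that the gate selects against, *Cd48* gave 1.37 at its brighter probe and 0.19 at the other. *Flt3* gave 0.36, with probes from -0.07 to 0.88, *Cd34* gave -0.15 and -0.997 at its 2 probes, and *Itga2b*, which encodes CD41, gave -0.37.

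Markers of several other cell types were more often higher. The sort gate excluded cells positive for CD4, CD8, B220, TER-119, Mac-1 or Gr-1, by the study's methods. Of 14 myeloid genes 9 were higher (6 by 2-fold or more) and 5 lower (2 by 2-fold or more), with a median of 0.70 and summed levels of 219 and 299. Without *Itgam*, which encodes Mac-1, the sums were 37.4 and 56.6. Of 10 measured B lineage genes of 11 listed, 10 were higher, with a median of 0.62 and summed levels of 14.6 and 34.7. Without *Jchain* the sums were 13.5 and 19.5, which is 1.44-fold. Of these genes, *Jchain*, a plasma cell gene, was higher by 3.75, *Ebf1*, *Ms4a1* and *Vpreb3* were dim on the p38α+/+ array, *Igll1* was dim on both, and *Cd79a* and *Pax5* lay at levels between -1.97 and -0.52 on both arrays. T and NK cell markers (7 of 8 higher, median 0.59, with *Cd3d* and *Cd3g* dim on both arrays) were mostly higher as well. Erythroid markers were split, with 6 of 8 higher (median 0.37). The 2 lower ones were the globins *Hbb-bt* (-1.10) and *Hba-a1* (-0.57). Megakaryocyte markers had a median near 0 (-0.0031) but were spread, with 6 of 11 lower (0 by 2-fold or more) and 5 higher (2 by 2-fold or more). The 2 past 2-fold were *Tubb1* (1.86) and *Gp6* (1.67, dim on the p38α+/+ array). Endothelial and stromal markers had a median of 0.09, with 4 lower and 5 higher of 9 measured. With normexp correction the medians were 0.49 for myeloid, 0.31 for B lineage and 0.36 for T and NK cell markers, the last being 0.29 with the mean of probes. In bulk RNA a smaller share of a cell type and less RNA per cell cannot be told apart. The part of these other cells in the lower signals of *Aldh2*, *Abcg2*, *Abca5* and the rest was not tested.

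**Figure D4:**
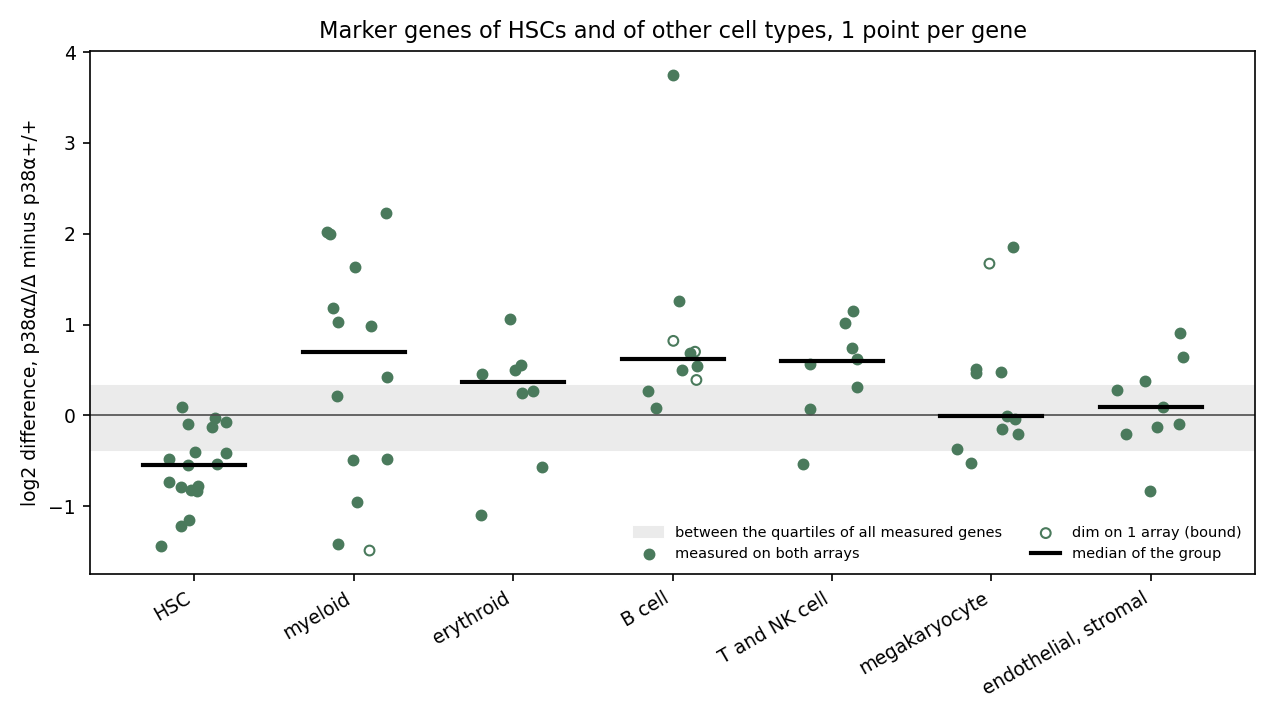
Difference between the arrays (log2, p38αΔ/Δ minus p38α+/+) for marker genes of HSCs and of other cell types, 1 point per measured gene, with a bar at each median and the range between the quartiles of all genes shaded. HSC markers have a median of -0.54, and myeloid and B cell markers medians of 0.70 and 0.62.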

How the data were processed

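RNA of LT-HSCs was labelled with Cy3 and hybridised to 2 Agilent arrays on the same slide, 1 per genotype. The authors deposited each array's scanner intensity per spot (gProcessedSignal of Agilent Feature Extraction 11.5.1.1, corrected for background and not normalized between arrays). A second deposited table gave log2 values of 35795 probes, none of them dim on either array. Set against the scanner files, its values were the log2 intensity less a constant (7.16 for p38α+/+ and 6.84 for p38αΔ/Δ), and the column medians were -0.79 and -0.79.

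Control spots and spots flagged as outliers were left out. The log2 intensity of each probe, minus the array's 75th percentile, gave the level, and the brightest probe stood for a gene. Probes were named through a RefSeq gene table (31778 of 55662, 57.1%). Genes that were dim on both arrays (not well above background by the scanner's flag) were dropped. A dim side below the array's lowest signal well above background was raised to it, so its fold is a lower bound. Without replicates no test was made, and a 2-fold difference served as the threshold. The number of arrays limits the precision. Methods were tested on simulated data with planted differences past 2-fold in genes well above background on both arrays. Smaller planted differences, bounds and normexp correction were not part of that test. The software was Python 3.11.15, R 4.3.3 and limma 3.58.1.

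The genes, lists and settings were chosen with earlier results of these data known. The families were found by symbol (*Abc* or *Aldh* followed by a number or a letter and number), the related and cell type lists came from textbook knowledge, and the aged markers are the study's. Beside the 9 genes, the rule named the 2 largest falls and rises of each family or related list, taken from genes that were not dim on either array, and the bounds past 2-fold. *Gad1*, *Gad2*, dim relatives and the markers of cell types were named after their values were seen. Alternatives were quantile and loess normalization, detected probes centred at their median, normexp correction with an offset of 50, the authors' table, outlier spots kept, the mean of probes, other background filters and no floor.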

Additional observations from a re-analysis of the deposited data

How the results depend on the processing

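No paired analysis was possible because each genotype had 1 array, and for the same reason no replicate could be left out. The 9 genes kept their direction under every alternative at their brightest probe, and in each of them 1 (*Aldh2*) was lower by 2-fold or more and 0 were higher by as much. Of the alternatives, normexp background correction, which adds an offset and shrinks differences of dim probes, moved the median of the 9 genes from -0.51 to -0.28 and the share of all genes at least 2-fold lower from 6.71% to 0.727%. The dimmer *Abca5* probe gave 0.09 under it and -2.55 without a floor. The family medians ran from -0.13 to 0.04 (ABC) and from -0.33 to -0.08 (aldehyde dehydrogenases). Signal over background limits the low probes. Applying the alternatives to the families without the 9 genes, the related lists and the markers, leaving out the floor, and leaving 1 gene out of a summed marker level, were added after seeing the data.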

Other observations

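Genes next to the pumps and dehydrogenases were read on the same scale (log2 difference, p38αΔ/Δ minus p38α+/+), with the order of genes taken from RefSeq names, and were chosen after the values of the 9 genes were seen. Around the *Abcb1* pair the differences alternated along the chromosome. *Rundc3b*, before *Abcb1a*, was lower by -1.10 with low levels of -2.40 and -3.51. *Abcb1a* was higher by 0.73, *Abcb1b* was lower by -0.51 and *Abcb4* was higher by 0.62. Beside *Aldh2*, *Acad12*, an acyl-CoA dehydrogenase family gene, was lower by -1.31, with low levels of -1.58 and -2.89. *Mapkapk5*, also beside *Aldh2*, encodes a kinase that p38 can phosphorylate. It was lower by -0.46, with levels of 0.52 and 0.06. Normexp correction was not applied to *Rundc3b* or *Acad12*. *Map2k6*, which encodes a kinase that activates p38, lies next to *Abca5* and gave 0.09. *Herc3*, after *Abcg2*, was higher by 0.32, opposite to *Abcg2*. Beside *Abca4*, *Arhgap29* gave 0.13 and *Gclm*, dim on the array labelled p38αΔ/Δ, gave a bound of -1.16. *Cep20* beside *Abcc1* gave -0.14, *Gpld1* beside *Aldh5a1* -0.16 and *Anxa1* beside *Aldh1a1* -0.07. Each of these is a pair of values from 1 array per genotype, and no neighbour was tested.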
